A study of Mus musculus with 36 samples.

Results

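Cxcl12, Cxcr4 and Cxcr7 encode a secreted chemokine and its receptors, and their transcripts were followed in mouse fibroblasts under reprogramming to pluripotency and in the same cells given an inhibitor of the histone methyltransferase DOT1L. They are 3 of the 20325 genes measured in each of 36 libraries, matched by gene symbol; the files carry Cxcr7, the older symbol of Ackr3. The genes were chosen by the read-out at day 4, where the ligand and Cxcr4 were lower after the full inhibitor window, so their values in that comparison describe the choice and are given with no test. Each gene passed the filter on low counts in every fit.

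CXCL12 is a chemokine made mainly by stromal cells, among them fibroblasts, and it draws and holds haematopoietic, germ and other progenitor cells that carry CXCR4. CXCR4 couples to inhibitory G proteins and is desensitised by receptor kinases, arrestins and RGS proteins. ACKR3, the product of Cxcr7, binds the same ligand, does not couple to G proteins in the classical way, and takes CXCL12 out of the surroundings for degradation.

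The cells were E13.5 mouse embryonic fibroblasts (MEFs). At Col1a1 they carried a homozygous cassette of the reprogramming factors (Oct4, Klf4, Sox2, c-Myc) and at Rosa26 a heterozygous reverse tetracycline transactivator, so that doxycycline switched the factors on. The inhibitor was SGC0946 and its controls received DMSO. The timecourse held 7 groups of 2 libraries: MEFs with no treatment, cells after 2 days of doxycycline with control or inhibitor, and cells after 4 days with control, with inhibitor over days 0 to 2 (early window), over days 2 to 4 (mid window) or over days 0 to 4 (full window). In the sort, cells had 3.5 days of doxycycline, were separated by flow cytometry into those without (CDH1-) and with (CDH1+) the epithelial cadherin CDH1 at their surface, and stayed in doxycycline with control or inhibitor until day 5.5, again with 2 libraries a group. A lentivirus experiment put an empty or a Cdh1 lentivirus into MEFs, which were left uninduced or given 2 days of doxycycline with control or inhibitor. V6.5 embryonic stem cells (ESCs), freed of feeders 24 hours before harvest, closed the series with 2 libraries. Reprogramming cells and ESCs grew on irradiated feeder MEFs, whose RNA cannot be separated from that of the cells of interest. Since the labels do not tell whether replicates were separate embryos or cultures, each p describes the spread of these libraries alone, which may be technical.

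Libraries held between 18534377 and 50866706 expected counts. Behind the values lay between 686 and 32777 counts for Cxcl12, between 36 and 869 for Cxcr4 and between 59 and 1539 for Cxcr7. Levels are given as TPM, the length-corrected share of a library's transcripts, and are compared only within an experiment. Changes are log2 changes with their standard error (SE) from edgeR's quasi-likelihood test on counts, and calls rest on an adjusted p (Benjamini-Hochberg, over all genes) below 0.05. All 14 fibroblast markers of the list used stood above 1 TPM in every MEF and reprogramming group, and their summed level in ESCs was 82.2 to 93.0 TPM against 15700 to 16300 TPM in MEFs with the empty virus. In MEFs with the Cdh1 virus, the source label of replicate 2 named day 2 cells while its title and treatment named MEFs, and it was kept with the MEFs. In these bulk libraries fewer cells of a type and less RNA per cell cannot be told apart.

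The 250 bases before the start of each gene are shown because the ligand and Cxcr4 moved one way with the inhibitor at day 4 and Cxcr7 the other. They come from RefSeq on GRCm38.p6, a later build than the one named for the reads, and read from 5′ to 3′ on the gene's strand. Cxcl12 starts after chr6:117168285-117168534 on the plus strand, Cxcr4 after chr1:128592300-128592549 on the minus strand and Cxcr7 (Ackr3) after chr1:90203730-90203979 on the plus strand. Capitals mark the GC box GGGCGG, the TATA box TATAAA and the CCAAT box CCAAT, searched on both strands.
Cxcl12: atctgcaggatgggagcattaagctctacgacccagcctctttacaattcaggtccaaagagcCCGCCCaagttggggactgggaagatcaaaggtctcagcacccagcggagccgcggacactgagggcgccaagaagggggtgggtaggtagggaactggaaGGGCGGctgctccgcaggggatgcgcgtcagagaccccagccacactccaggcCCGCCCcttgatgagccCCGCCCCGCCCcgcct
Cxcr4: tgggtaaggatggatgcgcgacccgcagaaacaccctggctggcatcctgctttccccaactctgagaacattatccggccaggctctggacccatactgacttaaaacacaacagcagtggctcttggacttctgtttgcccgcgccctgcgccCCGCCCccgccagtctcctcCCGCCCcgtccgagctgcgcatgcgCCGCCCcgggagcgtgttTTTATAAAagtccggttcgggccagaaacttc
Cxcr7: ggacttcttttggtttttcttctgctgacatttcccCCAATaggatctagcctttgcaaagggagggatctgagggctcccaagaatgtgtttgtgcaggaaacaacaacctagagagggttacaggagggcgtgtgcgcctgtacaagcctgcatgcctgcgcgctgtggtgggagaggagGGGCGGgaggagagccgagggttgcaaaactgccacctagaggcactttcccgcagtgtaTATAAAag

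The Cxcl12 window held 5 GC boxes, between 187 and 11 bases before the start, the last of them overlapping by 1 base, and no TATA box. At least 4 GC boxes were found in 4.09% of the 32851 promoters of the table and at least 1 in 32.7%. Cxcr4 had 3 GC boxes and a TATA box that begins 30 bases before the start and overlaps a match on the other strand. Cxcr7 had 1 GC box, a CCAAT box and a TATA box that begins 8 bases before the start. TATAAA occurred in 12.4% and CCAAT in 33.8% of all promoters. ACGTG, a form of the core bound by hypoxia-inducible factors, occurred in 16.6% but in none of these 3 windows. The other form of that core, GCGTG, was not searched for. G and C made up 64.4% of the Cxcl12 window, 61.2% of the Cxcr4 window and 54.0% of the Cxcr7 window, where the median promoter had 52.4%. These matches describe the letters and say nothing of what binds there.

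The ligand was the most abundant of the 3 genes in every group. In untreated MEFs of the timecourse Cxcl12 stood at 199.9 and 206 TPM, rank 764 by mean level among 11829 genes above 1 TPM. Cxcr7 followed with 26.3 and 25.4 TPM, and Cxcr4 was low with 1.59 and 1.55 TPM. Uninduced fibroblasts of the timecourse thus held transcripts of the ligand and of the scavenging receptor, with a Cxcr4 level of 0.0605 and 0.0610 per unit of Cxcr7.

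**Figure D1:**
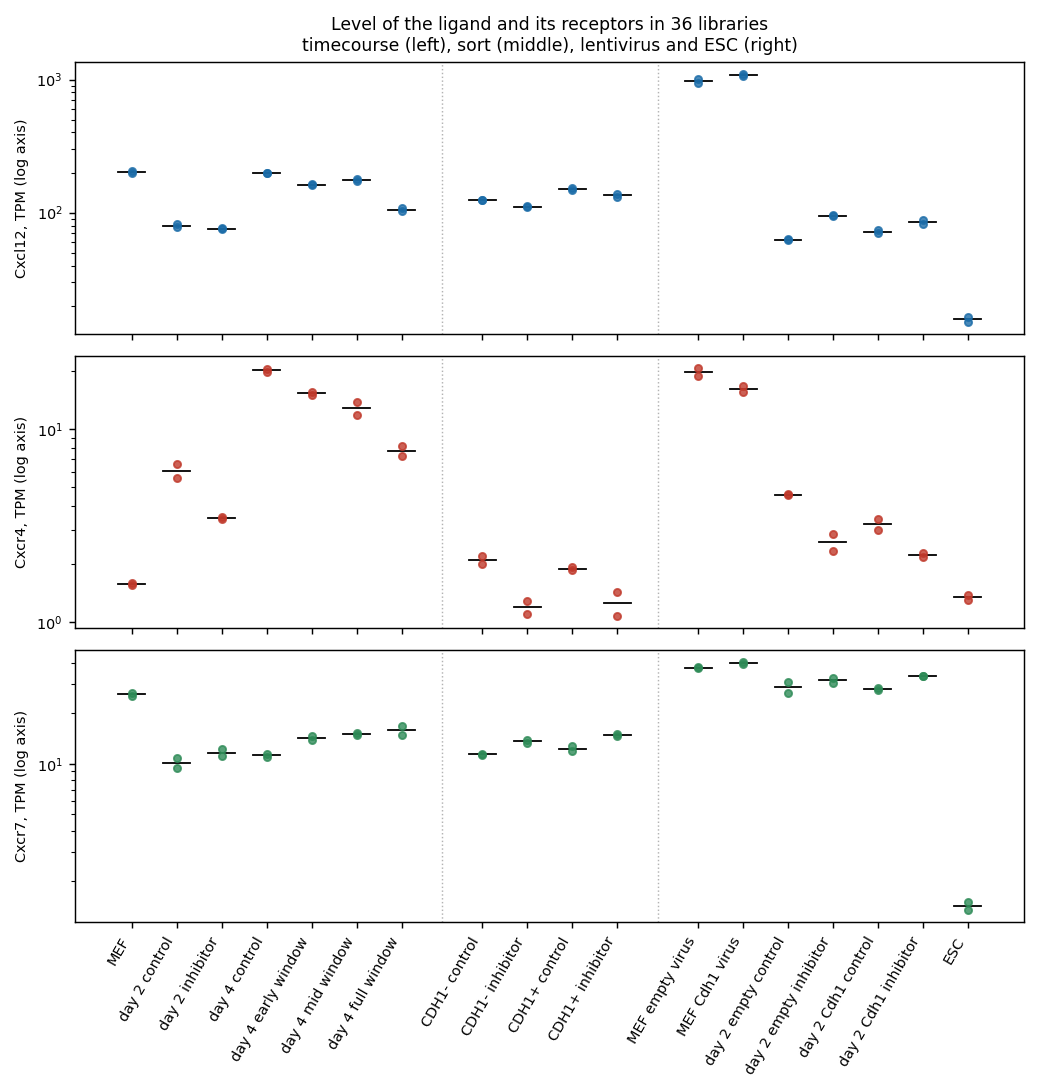
TPM (log axis) of Cxcl12, Cxcr4 and Cxcr7 in each of the 36 libraries (points), with the mean of the 2 libraries of a group (line); dotted lines part the timecourse, the sort and the lentivirus and ESC libraries, between which TPM is not compared. Cxcr4 climbs from about 1.59 TPM in MEFs to 20.6 TPM at day 4 in the timecourse, while Cxcl12 dips at day 2 and rises again by day 4.

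After 2 days of doxycycline the ligand fell and the signalling receptor rose. Cxcl12 was at 82.2 and 77.7 TPM, 2.77-fold lower than in MEFs (log2 change -1.47 ± 0.03 SE, adjusted p = 7.13e-33). Cxcr4 was at 6.63 and 5.57 TPM, 3.77-fold higher (1.91 ± 0.14, adjusted p = 1.61e-15). Cxcr7 was at 10.8 and 9.42 TPM and fell 2.64-fold (-1.40 ± 0.07, adjusted p = 2.21e-20). The libraries of the groups did not overlap for any of the genes. Changes were common in this comparison, where 74.4% of the 14473 genes tested were called. The collagens and other fibroblast markers fell as well, 14 of 14, from a summed 10300 to 10800 TPM in MEFs to 3230 to 3300 TPM, and 11 of 12 macrophage and leukocyte markers fell and 1 rose, from a summed 436 to 441 to 99.1 to 103 TPM. Their part in the changes of the 3 genes was not tested.

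With the inhibitor over those first 2 days, Cxcr4 was lower and Cxcl12 nearly level. Cxcr4 measured 3.43 and 3.50 TPM against 6.63 and 5.57 TPM in the control, a 1.80-fold decrease (-0.85 ± 0.12, adjusted p = 6.26e-07). Both inhibitor libraries lay below both controls. Cxcl12 measured 76.5 and 75.3 TPM against 82.2 and 77.7 TPM, and its decrease of 1.10-fold (-0.14 ± 0.03, adjusted p = 0.0041) lost the call without control replicate 1 (adjusted p = 0.101), without inhibitor replicate 2 (adjusted p = 0.0691) and in limma on TPM (adjusted p = 0.247). Cxcr7, at 11.1 and 12.2 TPM against 10.8 and 9.42 TPM, did not pass (0.17 ± 0.08, 95% interval 0.01 to 0.33, adjusted p = 0.132). Of all genes tested, 17.8% were called here. The macrophage and leukocyte markers summed to 99.1 to 103 TPM in the control and to 102 TPM in both inhibitor libraries, with 1 of 12 higher and 1 lower, and their part in the decrease of Cxcr4 was not tested.

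From day 2 to day 4 the control cells regained most of the ligand and gained more of CXCR4's transcript. The day 4 controls stood at 197.0 and 197.6 TPM of Cxcl12, close to the MEFs, at 20.6 and 19.9 TPM of Cxcr4, and at 11.0 and 11.4 TPM of Cxcr7. These libraries are the controls of the comparison that chose the genes, so the differences are descriptive: the log2 change from day 2 was 1.26 ± 0.03 for Cxcl12, 1.68 ± 0.09 for Cxcr4 and 0.11 ± 0.08 for Cxcr7. Against untreated MEFs, Cxcr4 was 12.1-fold higher, and by counts Cxcl12 was still lower (log2 change -0.21 ± 0.03).

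Levels above those of day 2 also stood at day 4 in groups that played no part in the choice. The groups compared differ in inhibitor exposure as well as in day, and the 2 cannot be told apart here. Cells given the inhibitor after day 2 (mid window) had 179 and 172 TPM of Cxcl12, and the ligand was 2.12-fold higher than in day 2 controls (1.08 ± 0.03, adjusted p = 6.14e-28). Their Cxcr4 was at 13.9 and 11.9 TPM, 2.09-fold higher (1.06 ± 0.10, adjusted p = 1.23e-12). Cxcr7 reached 14.8 and 15.3 TPM, 1.48-fold higher (0.56 ± 0.08, adjusted p = 2.32e-08). All 3 genes were thus higher in the mid window cells, as 39.9% of all genes were, with 79.0% called in either direction. For Cxcr7 the controls alone differed by only 0.11 ± 0.08 between day 2 and day 4. Cells released from the inhibitor at day 2 (early window) were compared with the cells harvested at that time under inhibitor. Cxcr4 rose 4.48-fold from 3.43 and 3.50 to 15.2 and 15.7 TPM (2.16 ± 0.10, adjusted p = 6.41e-22), Cxcl12 2.15-fold to 161 and 164 TPM (adjusted p = 2.38e-28) and Cxcr7 1.24-fold to 14.7 and 13.9 TPM (adjusted p = 3e-04). In that comparison 78.2% of genes were called. All 12 macrophage and leukocyte markers rose in both of these comparisons, with summed levels of 338 to 340 TPM in the mid and 300 to 306 TPM in the early window. CXCR4 is known from leukocytes, and the part of such cells in the rise of Cxcr4 was not tested.

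At day 4 the inhibitor windows ordered the 3 genes differently. The full window, which chose the genes, gave 103 and 108 TPM of Cxcl12 (log2 change against control -0.98 ± 0.03) and 8.16 and 7.23 TPM of Cxcr4 (-1.41 ± 0.09). Cxcr7 was the gene that went the other way, at 14.8 and 16.8 TPM (0.49 ± 0.07). For Cxcl12 the early window gave -0.29 ± 0.03 and the mid window -0.17 ± 0.03 against the same controls, and the sum of these log2 changes, -0.46, was smaller in size than that of the full window. For Cxcr4 the windows gave -0.37 ± 0.08 and -0.62 ± 0.09, which sum to -0.99. Cxcr7 gave 0.37 ± 0.07 and 0.46 ± 0.08, so that each single window came close to the full one. These comparisons share the day 4 controls, and no test is given for the 3 genes in them. Among all genes, 34.8% were called with the full, 5.63% with the early and 27.4% with the mid window.

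The early and the mid window can be set against each other without those controls. Cxcl12 was lower after the early window (-0.11 ± 0.03, adjusted p = 0.00931) and Cxcr4 higher (0.25 ± 0.09, adjusted p = 0.0343), while Cxcr7 did not pass (-0.09 ± 0.07, 95% interval -0.24 to 0.06, adjusted p = 0.456). The differences of ligand and receptor were small and opposite, in a comparison where 21.2% of genes were called. The call of Cxcl12 was lost without early replicate 1 (adjusted p = 0.0852), without mid replicate 1 (adjusted p = 0.102) and in limma on TPM (adjusted p = 0.0567). That of Cxcr4 was lost in DESeq2 (adjusted p = 0.103), in limma on TPM (adjusted p = 0.0585), without either early library (adjusted p = 0.0842 and 0.184) and without mid replicate 2 (adjusted p = 0.391, log2 change 0.16).

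**Figure D2:**
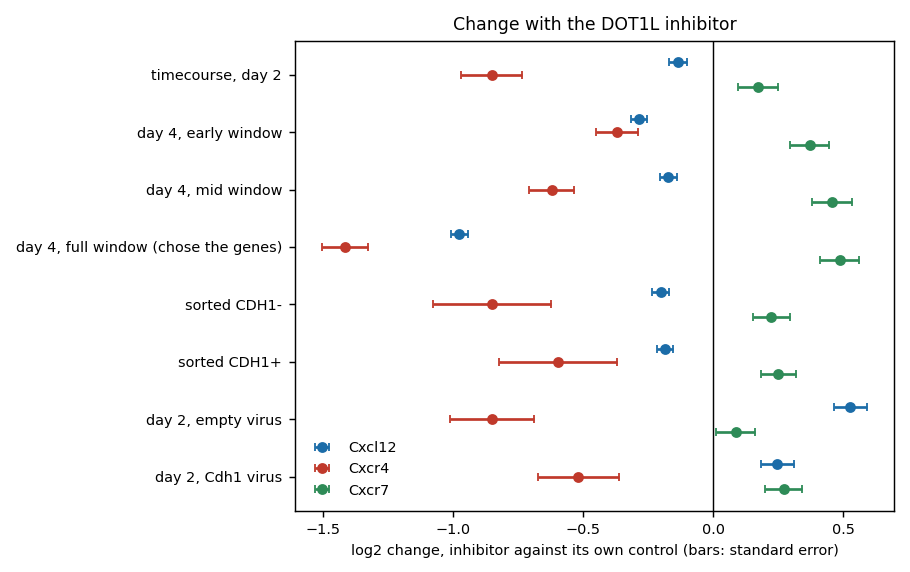
Log2 change with the inhibitor against the control of the same setting (points) and its SE (bars) for Cxcl12, Cxcr4 and Cxcr7 in 8 settings; the full window chose the genes. Cxcr4 lies left of 0 in each setting and Cxcr7 right of it, while Cxcl12 lies left in the timecourse and sort and right in the lentivirus cells, at 0.53 with the empty virus.

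In the sorted cells, which had the inhibitor only between days 3.5 and 5.5, all 3 genes moved by modest amounts. In CDH1- cells Cxcl12 was at 110 and 112 TPM with the inhibitor against 124 and 125 TPM in the control (-0.20 ± 0.03, adjusted p = 3.87e-07). In CDH1+ cells it was at 139 and 131 TPM against 148 and 154 TPM (-0.19 ± 0.03, adjusted p = 1.14e-06). The inhibitor libraries lay below the controls in both fractions. Of all genes, 18.7% were called in CDH1- and 18.8% in CDH1+ cells.

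Cxcr4 was scarce after the sort, with 36 to 69 counts per library. It was at 1.10 and 1.29 TPM with the inhibitor against 2.00 and 2.21 TPM in CDH1- cells (-0.85 ± 0.23, adjusted p = 0.00338). In CDH1+ cells it was at 1.08 and 1.44 TPM against 1.93 and 1.86 TPM, which did not pass (-0.60 ± 0.23, 95% interval -1.05 to -0.15, adjusted p = 0.0519), although it did in limma on TPM (adjusted p = 0.0297). The call in CDH1- cells was lost in DESeq2 (adjusted p = 0.0626), without control replicate 2 (adjusted p = 0.0569) and without inhibitor replicate 1 (adjusted p = 0.0621).

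Cxcr7 was higher with the inhibitor in both fractions. It measured 13.8 and 13.3 TPM against 11.5 and 11.3 TPM in CDH1- cells (0.22 ± 0.07, adjusted p = 0.0162) and 14.6 and 15.1 TPM against 11.9 and 12.7 TPM in CDH1+ cells (0.25 ± 0.07, adjusted p = 0.00412). Neither call held in DESeq2, with adjusted p = 0.105 in CDH1- and 0.0546 in CDH1+ cells. They were also lost without CDH1- control replicate 1 (adjusted p = 0.0652), control replicate 2 (adjusted p = 0.0783) or inhibitor replicate 1 (adjusted p = 0.128), and without CDH1+ control replicate 1 (adjusted p = 0.102) or inhibitor replicate 2 (adjusted p = 0.0802).

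Cells sorted as CDH1+ held more of the ligand's transcript at harvest. The labels CDH1+ and CDH1- describe the surface at the sort, before the further culture, and not at harvest. Cxcl12 was 1.17-fold higher in CDH1+ than in CDH1- control cells (0.23 ± 0.03, adjusted p = 2.61e-09) and 1.19-fold higher under the inhibitor (0.25 ± 0.03, adjusted p = 3.81e-10), where 26.6% and 26.8% of genes were called. Neither receptor passed: the log2 difference was -0.19 for Cxcr4 (95% interval -0.61 to 0.23) in control cells and 0.07 for Cxcr7 (-0.07 to 0.22). In the CDH1+ control cells 11 of 12 macrophage and leukocyte markers were higher, with a summed 225 to 229 against 82.6 to 85.8 TPM. Their part in the values of the 3 genes was not tested. A difference of the inhibitor effect between the fractions was called for none of the 3 genes: it was 0.01 for Cxcl12 (95% interval -0.07 to 0.10), 0.25 for Cxcr4 (-0.39 to 0.90) and 0.03 for Cxcr7 (-0.17 to 0.22). This difference was called for 0.186% of genes.

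The lentivirus experiment, whose TPM is not set against that of the timecourse, gave another direction for the ligand with the inhibitor. MEFs with the empty virus had 1017 and 947 TPM of Cxcl12, rank 156 of 12513 genes above 1 TPM. They had 19.0 and 20.7 TPM of Cxcr4 and 37.1 and 37.5 TPM of Cxcr7. The macrophage and leukocyte markers, led by Lyz2, summed to 3050 to 3310 TPM. Whether those markers account for the Cxcr4 level was not tested.

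At day 2 of doxycycline these cells had lost most of the ligand. With the empty virus Cxcl12 was at 61.8 and 63.1 TPM, 12.8-fold below the MEFs (-3.67 ± 0.07, adjusted p = 1.63e-22). Cxcr4 fell 3.74-fold to 4.60 and 4.55 TPM (-1.90 ± 0.12, adjusted p = 1.5e-12). Cxcr7 was at 30.5 and 26.5 TPM, a small decrease (-0.18 ± 0.07, adjusted p = 0.0406) that was lost in DESeq2 (adjusted p = 0.0594), without either MEF library (adjusted p = 0.11 and 0.12) and without day 2 replicate 2 (adjusted p = 0.416, log2 change -0.09). With the Cdh1 virus, day 2 cells had 73.5 and 70.7 TPM of Cxcl12, 3.43 and 3.02 TPM of Cxcr4 and 28.2 and 27.4 TPM of Cxcr7. Against MEFs with that virus the log2 changes were -3.65 ± 0.07 for Cxcl12, -2.15 ± 0.13 for Cxcr4 and -0.34 ± 0.07 for Cxcr7, all called, with the largest adjusted p at 0.000258 for Cxcr7. Both comparisons called 66.0% of genes. With the empty virus 10 of 12 macrophage and leukocyte markers fell and 1 rose, to a summed 451 to 483 TPM, and 13 of 14 fibroblast markers fell.

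Adding Cdh1 itself was followed by no called change of the 3 genes. In MEFs with the Cdh1 virus Cxcl12 was at 1097 and 1058 TPM (0.16 ± 0.06, adjusted p = 0.323), Cxcr4 at 15.6 and 16.8 TPM (-0.27 ± 0.11, adjusted p = 0.354) and Cxcr7 at 39.1 and 40.1 TPM (0.11 ± 0.07, adjusted p = 0.666). At day 2 the changes were 0.19 ± 0.06, -0.52 ± 0.15 and -0.05 ± 0.07, with adjusted p of 0.249, 0.105 and 0.897. Few genes were called with this virus, 1.14% in MEFs and 0.897% at day 2. They included 10 of 12 macrophage and leukocyte markers in MEFs, all lower (summed 1790 to 2050 TPM), and 11 of 12 at day 2 (182 to 190 TPM).

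With the inhibitor over 2 days, the ligand rose in the lentivirus cells and Cxcr4 fell. With the empty virus Cxcl12 was at 94.5 and 95.3 TPM against 61.8 and 63.1 TPM, a 1.44-fold increase (0.53 ± 0.06, adjusted p = 2.05e-05). Both inhibitor libraries lay above both controls. Cxcr4 was at 2.35 and 2.86 TPM against 4.60 and 4.55 TPM (-0.85 ± 0.16, adjusted p = 0.00202), a call that without inhibitor replicate 1 stood at an adjusted p of 0.0509. Cxcr7 was at 30.1 and 32.5 TPM against 30.5 and 26.5 TPM, and did not pass (0.09 ± 0.08, 95% interval -0.07 to 0.24, adjusted p = 0.551). In this comparison 6.73% of genes were called. The macrophage and leukocyte markers summed to 394 to 402 TPM with the inhibitor, 4 of 12 lower, against 451 to 483 TPM. Their part in the decrease of Cxcr4 was not tested.

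With the Cdh1 virus the changes had the same signs. Cxcl12 was at 82.8 and 88.5 TPM against 73.5 and 70.7 TPM (0.25 ± 0.06, adjusted p = 0.0253). Cxcr4 was at 2.29 and 2.17 TPM against 3.43 and 3.02 TPM, short of the threshold (-0.52 ± 0.16, 95% interval -0.84 to -0.19, adjusted p = 0.0565) but past it in limma on TPM (adjusted p = 0.0499). Cxcr7 was at 33.2 and 33.3 TPM against 28.2 and 27.4 TPM (0.27 ± 0.07, adjusted p = 0.032). Here the macrophage and leukocyte markers were at 191 to 199 TPM with the inhibitor and at 182 to 190 TPM without, and 5.05% of all genes were called. The calls of Cxcl12 and Cxcr7 did not hold when only these 2 groups were fitted (adjusted p = 0.0909 and 0.0919) or in limma on TPM (adjusted p = 0.0624 and 0.0857). Leaving out 1 library at a time ended the call of Cxcl12 without control replicate 1 (adjusted p = 0.108), control replicate 2 (adjusted p = 0.213) or inhibitor replicate 2 (adjusted p = 0.155), and that of Cxcr7 without any of the 4 libraries (adjusted p between 0.0611 and 0.234). A difference of the inhibitor effect between the viruses was called for none of the 3 genes, with -0.28 for Cxcl12 (95% interval -0.47 to -0.09, adjusted p = 0.464). That test called 0 of 15044 genes (0%), with 1126 at an unadjusted p under 0.05, and DESeq2 called 17.

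The difference in direction between the experiments was then tested in a joint fit of the 36 libraries, added after the values of both had been seen. The day 2 effect of the inhibitor on Cxcl12 was higher with the empty virus than in the timecourse by 0.66 ± 0.06 (log2, adjusted p = 1.15e-09), and 4.73% of 15570 genes differed. For Cxcr4 the difference was -0.00 ± 0.19 (adjusted p = 1), and for Cxcr7 it was -0.09 ± 0.10 (adjusted p = 0.702). The change from MEFs to day 2 differed as well, by -2.12 ± 0.06 for Cxcl12, -3.73 ± 0.18 for Cxcr4 and 1.30 ± 0.10 for Cxcr7, as it did for 55.8% of genes. The experiments also differ in the virus, the spiked human RNA and the layout of the reads, which cannot be told apart from the cells themselves.

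**Figure D3:**
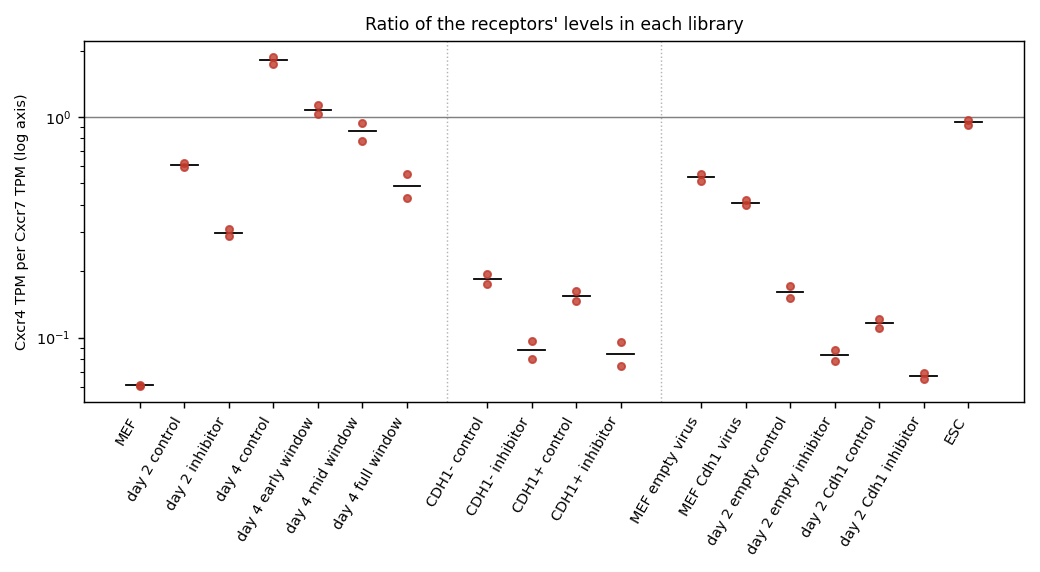
Cxcr4 TPM divided by Cxcr7 TPM (log axis) in each library, with the mean of each group (line) and a grey line at equal levels. Only the day 4 control and early window libraries of the timecourse lie above 1, and every inhibitor group lies below its control. The day 4 controls and the full window chose the genes, so the order at day 4 describes that choice.

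The balance of the receptors followed from these changes. In the timecourse the ratio of Cxcr4 to Cxcr7 TPM was 0.617 and 0.591 in day 2 controls and 0.310 and 0.288 with the inhibitor. At day 4 it was 1.87 and 1.75 in controls, 1.03 and 1.13 after the early window, 0.944 and 0.778 after the mid window and 0.550 and 0.429 after the full window. The controls and full window of day 4 chose the genes, and the other windows share those controls, so these ratios are descriptive. In the sorted cells it ran from 0.146 to 0.195 in controls and from 0.0740 to 0.0967 with the inhibitor. At day 2 of the lentivirus experiment it ran from 0.110 to 0.172 in controls and from 0.0651 to 0.0879 with the inhibitor. The signalling receptor was thus outnumbered by the scavenging one per transcript in each sorted and lentivirus library, MEFs included.

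ESCs had little of any of the 3 transcripts. Cxcl12 was at 15.2 and 16.5 TPM, Cxcr4 at 1.31 and 1.39 TPM and Cxcr7 at 1.35 and 1.51 TPM. Against MEFs with the empty virus these were decreases of 38.4-fold, 11.0-fold and 19.5-fold, with adjusted p of 6.25e-26, 2.88e-17 and 1.15e-21. Against day 2 control cells with the empty virus the decreases were 3.01-fold, 2.93-fold and 17.2-fold, with adjusted p of 1.28e-16, 4.35e-09 and 4.16e-21. The loss of Cxcr7 relative to day 2 cells was the largest of the 3. These comparisons called 88.7% and 85.6% of all genes, and ESCs differ from the other cells in culture and handling as well as in cell type.

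The deposited length of a gene is a mean over its annotated transcripts weighted by their estimated abundance, so for Cxcl12, with 3 transcripts in the files, it reads the mix of its forms. Cxcr4 and Cxcr7 had 1 transcript each. In a current annotation (GENCODE vM21) the models of those Cxcl12 transcripts measure 1878, 3132 and 5627 bases, and the models used for the files may differ. The weighted length was 2460 bases in both timecourse MEF libraries, 2303 and 2341 at day 2, and 2333 and 2319 at day 4 in controls. It was lower in every inhibitor group than in its timecourse control, with 2288 and 2279 bases at day 2 and 2249 and 2227 bases after the full window. Such an order was common: of 2461 genes with several transcripts and a mean above 1 TPM, 15% had lengths below control without overlap at day 2, 16.3% after the early, 16.3% after the mid and 17.4% after the full window. The lower length is thus no feature of Cxcl12 in particular, and with 2 libraries each an exact permutation test cannot reach 0.05. In the sort it lay between 2138 and 2180 bases with overlapping groups, and at day 2 of the lentivirus experiment between 2290 and 2356. ESCs had the longest mix, at 2652 and 2658 bases. Read layout and fragment length differ between the experiments and touch these estimates.

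**Figure D4:**
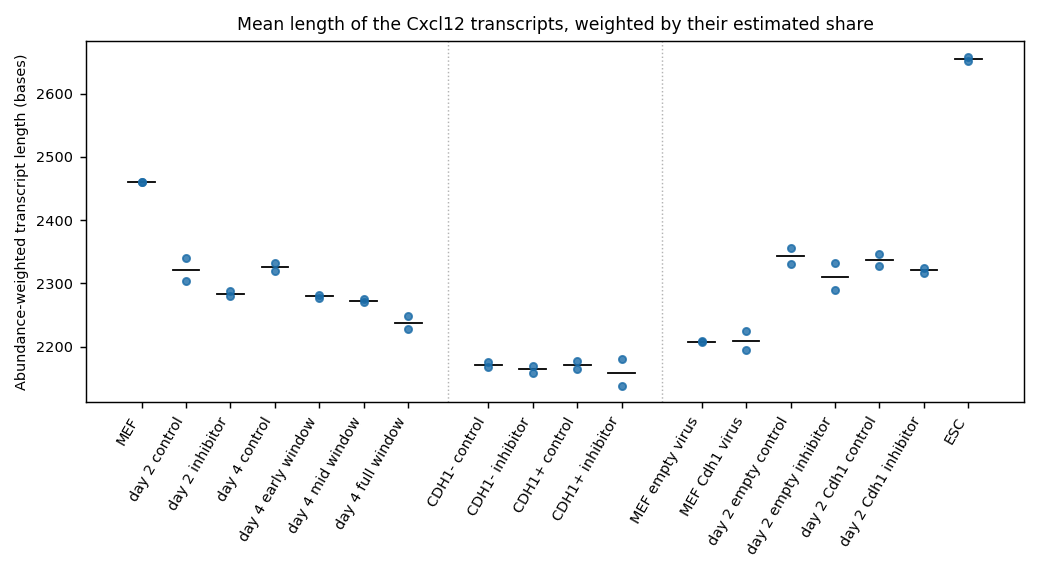
Abundance-weighted mean length in bases of the Cxcl12 transcripts in each library (points) and its group mean (line); the axis does not start at 0. In the timecourse the inhibitor groups lie below their controls, and ESCs lie highest, at about 2655 bases.

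Among the other chemokine ligands, more were called higher than lower with the inhibitor at day 2. Of 35 further ligands listed, 34 were in the files and 27 passed the filter in the timecourse. At day 2, 12 rose and 0 fell, with a median log2 change of 0.55 where that of all genes was -0.00, and 8.73% of all genes rose. Ccl2, a monocyte attractant, went from 223 and 237 to 351 and 364 TPM (0.60 ± 0.04, adjusted p = 7.35e-12). Cxcl14 went from 95.2 and 91.5 to 133 and 134 TPM (0.48 ± 0.04, adjusted p = 6.51e-10). Cx3cl1, the membrane-bound fractalkine (0.52 ± 0.05), and Cxcl1, a neutrophil attractant (0.55 ± 0.07), rose as well, with adjusted p of 2.24e-09 and 1.27e-07.

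After the full window at day 4, 12 of the 27 ligands rose and 3 fell, namely Ccl11, Cxcl5 and Cxcl15, where 19% of all genes rose and 15.8% fell. Cx3cl1 went from 20.7 and 20.9 to 52.1 and 51.7 TPM (1.30 ± 0.04, adjusted p = 8.22e-25) and Cxcl16 from 7.59 and 8.48 to 18.3 and 18.9 TPM (1.201 ± 0.08, adjusted p = 1.2e-15). The mid window gave 13 higher and 0 lower, the early window 4 and 1, and 14 of the 27 were lower after the early than after the mid window with 0 higher. With the mid window 27.4% of all genes were called, and those called higher made up 14% of all genes. With the early window 3.19% of all genes rose and 2.45% fell. In early against mid, 11% of all genes were higher and 10.3% lower. The median log2 change of the ligands against control was 0.30 after the full, 0.50 after the mid and -0.05 after the early window, and Cxcl12 was below control in each.

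In the sort 22 ligands were tested. With the inhibitor 13 rose and 0 fell in CDH1- cells, while 8 rose and 1 (Ccl7) fell in CDH1+ cells, where 7.82% and 8.33% of all genes rose. In the lentivirus cells, with 26 tested, 4 rose with the empty and 6 with the Cdh1 virus and 0 fell with either, where 3.22% and 2.82% of all genes rose and Cxcl12 rose too. Ccl2 and Ccl20, an attractant of CCR6-bearing cells, were higher in 6 of 6 comparisons (day 2, full window, both sorted fractions and both viruses). Ccl20 rose by 0.98 ± 0.11 with the empty virus (adjusted p = 7.89e-06), and Ppbp, a platelet chemokine, by 0.69 ± 0.13 (adjusted p = 0.00138).

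**Figure D5:**
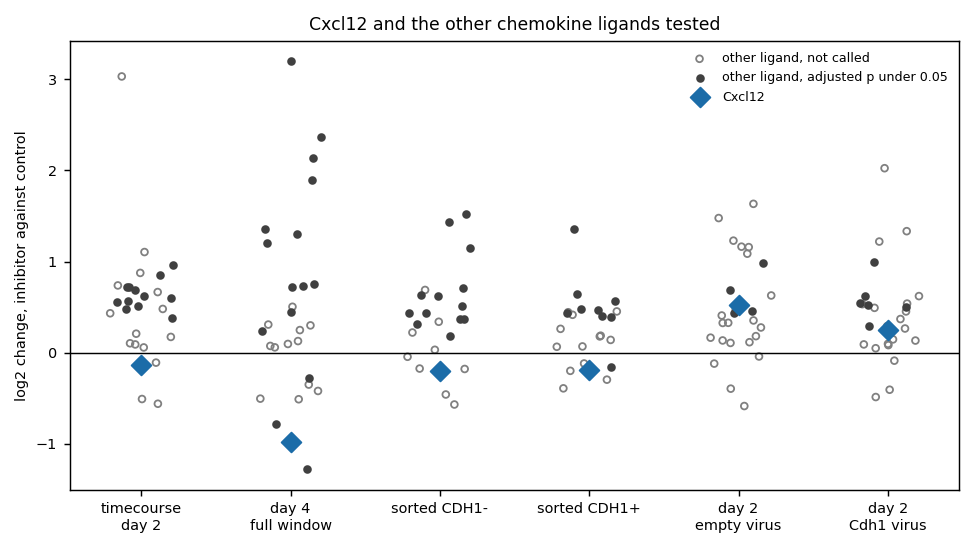
Log2 change with the inhibitor for each other chemokine ligand tested (circles, filled where the adjusted p is under 0.05) and for Cxcl12 (diamonds) in 6 settings; horizontal spread within a setting carries no meaning. Most filled circles lie above 0, where Cxcl12 lies only in the lentivirus cells.

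Of 21 other chemokine receptors, 10 passed the filter in each fit. With the inhibitor, Ccrl2, an atypical receptor that binds chemerin, rose at day 2 (1.39 ± 0.38, adjusted p = 0.00679) and Cxcr6, the receptor of CXCL16, fell (-0.33 ± 0.11, adjusted p = 0.0417). Ccrl2 was scarce, with a mean no higher than 1 TPM in both day 2 groups. After the full window Ccrl2, Ccr10 and Cx3cr1 rose and 0 fell. Of all genes, 17.8% were called at day 2, 34.8% after the full window, 18.7% in CDH1- and 18.8% in CDH1+ cells. The receptors named are thus described as single genes. Darc, a chemokine scavenger also known as ACKR1, rose in CDH1- (1.41 ± 0.45, adjusted p = 0.0161) and CDH1+ cells (1.61 ± 0.44, adjusted p = 0.00425). It was scarce too, with means of 1.12 and 1.18 TPM under the inhibitor and no higher than 1 TPM in the controls. With either virus edgeR called 0 of the 10, where 6.73% (empty) and 5.05% (Cdh1) of all genes were called. At an unadjusted p under 0.05 stood 1 (Darc, lower) with the empty virus and 0 with the Cdh1 virus. Single receptors were not tested there with another tool.

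Genes that carry or end the CXCR4 signal were called in both directions. Of all genes, 17.8% were called at day 2 and 34.8% after the full window. Of 32, all tested, 4 rose and 4 fell at day 2 with the inhibitor, and 13 rose and 5 fell after the full window. The share that rose after the full window was above the 19% of all genes, while the share that fell was close to their 15.8%. The median log2 changes were 0.01 and 0.06. Gng12, a G protein gamma subunit, fell at day 2 (-0.26 ± 0.03, adjusted p = 1.29e-07) and after the full window (-0.43 ± 0.03, adjusted p = 9.12e-14). Arrb1, a beta-arrestin that uncouples receptors and that CXCR4 and ACKR3 recruit, rose by 0.41 ± 0.07 at day 2 (adjusted p = 2.52e-05). After the full window Rgs16, Rgs3 and Rgs2, which speed the shut-off of G proteins, rose by 0.78 ± 0.04, 0.70 ± 0.04 and 0.88 ± 0.07, with adjusted p of 6.81e-21, 1.11e-18 and 3.62e-13. In the sort 2 rose and 5 fell in CDH1- and 2 rose and 3 fell in CDH1+ cells. These counts are not far from the 18.7% and 18.8% of all genes called there. In both fractions Gng12 was lower and Arrb1 higher. With the viruses 1 and 3 rose and 0 fell, among them Rgs4 with both (0.98 ± 0.12 and 0.65 ± 0.11, adjusted p = 1.4e-05 and 0.00118). The shares of all genes called were 6.73% with the empty and 5.05% with the Cdh1 virus.

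Among 20 genes that bind, cut or share CXCL12 and its receptors, 18 passed the filter in each fit. With the inhibitor 3 rose and 4 fell at day 2, and 9 rose and 3 fell after the full window, where 17.8% and 34.8% of all genes were called. Dpp4, a peptidase that clips and inactivates CXCL12, was low at day 2, at 0.23 and 0.31 TPM in controls and 0.59 and 0.57 TPM with the inhibitor (1.07 ± 0.19, adjusted p = 6.95e-05). After the full window it was at 11.1 and 12.0 TPM against 4.01 and 4.31 TPM (1.48 ± 0.08, adjusted p = 3.16e-19). Mmp14, a membrane protease that can cut CXCL12, fell at day 2 (-0.27 ± 0.03, adjusted p = 3.57e-08), and Sdc1, a heparan sulphate carrier of the kind that holds chemokines, fell too (-0.15 ± 0.03, adjusted p = 0.000814). In the sort 3 rose and 6 fell in CDH1- cells and 4 rose and 3 fell in CDH1+ cells, with Mmp14 lower in both. The shares of all genes called were 18.7% in CDH1- and 18.8% in CDH1+ cells. With the viruses 3 rose and 1 fell (empty), and 1 rose and 0 fell (Cdh1), where 6.73% and 5.05% of all genes were called.

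Of 16 transcription factors reported to act on one of the 3 genes, 1 rose and 3 fell at day 2 with the inhibitor, and 3 rose and 4 fell after the full window. These shares are not far from the 17.8% and 34.8% of all genes, so the values that follow describe single genes. Hic1, a repressor reported to bind the human CXCR7 promoter, was at 14.9 and 14.8 TPM against 18.1 and 18.5 TPM at day 2 (-0.33 ± 0.06, adjusted p = 6.03e-05). After the full window it was at 3.30 and 2.74 TPM against 7.89 and 7.20 TPM (-1.30 ± 0.09, adjusted p = 6.59e-16). It also fell in CDH1- cells (-0.26 ± 0.06, adjusted p = 0.000436) and with the empty virus (-0.41 ± 0.08, adjusted p = 0.0023). Foxc1 and Ebf3, which are needed in mouse marrow stroma for its CXCL12-rich cells, were lower after the full window (-0.29 ± 0.07 and -0.33 ± 0.07, adjusted p = 0.000452 and 9.75e-05), and Foxc1 also in CDH1- (-0.37 ± 0.07, adjusted p = 2.09e-05) and CDH1+ cells (-0.31 ± 0.07, adjusted p = 0.000381). In those fractions 0 of the 16 rose and 4 and 2 fell, where 18.7% and 18.8% of all genes were called. With the viruses 0 and 2 rose and 1 and 0 fell, where 6.73% and 5.05% of all genes were called.

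Of 14 stromal niche factors, all tested, 5 rose and 1 fell at day 2 with the inhibitor and 6 rose and 4 fell after the full window, against 17.8% and 34.8% of all genes called. Csf1, the growth factor of macrophages, rose at both times (0.30 ± 0.03 and 0.44 ± 0.03, adjusted p = 2.29e-09 and 1.58e-14). Igfbp5, an IGF-binding protein, rose at day 2 (0.34 ± 0.07, adjusted p = 0.00105) and fell after the full window from 22.6 and 22.9 to 5.64 and 5.91 TPM (-1.99 ± 0.05, adjusted p = 1.67e-30). With the empty virus 6 rose and 1 fell and with the Cdh1 virus 7 rose and 1 fell, where 6.73% and 5.05% of all genes were called, among them Kitl, the stem cell factor, with both (0.52 ± 0.10 and 0.55 ± 0.10, adjusted p = 0.00323 and 0.0024). In the sort 3 and 2 rose and 0 and 1 fell, where 18.7% and 18.8% of all genes were called in CDH1- and CDH1+ cells.

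Lists of other cell types held many called genes after the full window, where 34.8% of all genes were called. In it 12 of 12 epithelial markers tested rose and 0 fell, 7 of 14 fibroblast markers rose and 5 fell, and 3 of 12 macrophage and leukocyte markers rose and 2 fell. The last list summed to 330 to 334 TPM against 326 to 336 TPM in the day 4 controls, and the fibroblast list to 4200 to 4280 against 3820 to 3850 TPM. Their part in the lower Cxcl12 and Cxcr4 was not tested. Of the endothelial markers 8 of 12 were tested, 3 higher and 1 lower, and 2 of the 12 stood above 1 TPM in day 4 controls, with Tek leading. Of 8 tested muscle markers 2 were higher and 0 lower, of 8 neural crest and Schwann markers 3 and 3, and of 4 tested pluripotency markers 3 and 1, with a median log2 change of 2.40.

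Over the 14 timecourse libraries, genes with the most similar profiles were ranked by Pearson's r of log2 CPM (counts scaled to library size) among 9895 genes, as a description over libraries that share groups. Nearest to Cxcl12 were Alx4 (r = 0.981), a mesenchymal homeobox gene, Chka (0.978), Stab1 (0.971), Gmds (0.963) and Nbl1 (0.963). Alx4 also ranked first by Spearman's rho, and the others between rank 16 and 54. Over the 8 sorted libraries Chka, Stab1 and Nbl1 had a positive r with Cxcl12 (0.459, 0.828 and 0.882), whereas Alx4 and Gmds had -0.388 and -0.682. Nearest to Cxcr4 were Cdk19 (0.983), Ccbl2 (0.980), Mid1 (0.979), Dclre1c (0.979) and Phka2 (0.979), at Spearman ranks from 25 to 221. In the sorted libraries their r with Cxcr4 was 0.716, -0.37, 0.803, 0.759 and -0.23. Nearest to Cxcr7 were the early-response genes Ier3 (0.979) and Junb (0.973) with the kinase gene Pim1 (0.978), Cotl1 (0.977) and Prrc1 (0.974), at Spearman ranks from 3 to 70. In the sorted libraries r with Cxcr7 was 0.867 for Ier3, 0.263 for Junb, 0.836 for Pim1, 0.322 for Cotl1 and -0.46 for Prrc1. Ier3, for instance, stood at 98.5 and 87.8 CPM in MEFs, 28.0 and 27.5 CPM in day 4 controls and 38.9 CPM in both full-window libraries. Among themselves the 3 genes had r = 0.169 for Cxcl12 and Cxcr4, 0.59 for Cxcl12 and Cxcr7 and -0.544 for the receptors over the 14 timecourse libraries. The same values were 0.497, -0.308 and -0.868 over the 8 sorted libraries, and 0.939, 0.615 and 0.516 over the 14 lentivirus and ESC libraries.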

How the data were processed

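Polyadenylated RNA was sequenced in 36 libraries, 18 groups of 2, taken from the sample titles. Trimmomatic, Bowtie and RSEM 1.2.4, and the builds mm9 and hg18, are named in the submitters' processing notes; versions of the first 2 tools are not given in the sources used here. The deposited expected counts are RSEM estimates per gene, not normalized, with reads shared by several genes divided by its model. The authors' TPM values rest on RSEM's effective length, which is shorter than gene length by 59.9 to 88.8 bases (median per library) in the timecourse and sort and by 0 elsewhere. The gene length in the deposited files is another RSEM output. 20 ng of human 293T RNA had been added to timecourse and sort libraries. The spike was not used here, and every change is relative to the rest of its library.

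Expected counts were rounded and tested with edgeR 4.0.16 in R 4.3.3 (TMM, quasi-likelihood, filterByExpr with minimum count 10 and total 15). The fits held 14 timecourse, 8 sort, and 14 lentivirus and ESC libraries, with 14473, 13968 and 15044 genes tested and residual degrees of freedom of 7, 4 and 7. Adjusted p-values are from these models unless another tool, a refit or the joint fit is named. Each was adjusted over all genes within its own contrast, and 27 contrasts were fitted in these models. The fits were tested on simulated counts with known changes. Alternatives were DESeq2 1.42.0, its size factors, no filter, limma 3.58.1 on log2(TPM + 1), only the groups compared, a replicate block and leaving out each library. The 3 genes, the 13 gene lists (214 of 215 genes in the files) and the tests were chosen with earlier results of these data known. Named list genes are up to 4 called ones with the smallest p, followed across comparisons. Ccl11, Cxcl5, Cxcl15, Ccl7, Dpp4 and Foxc1, where outside that rule, were named after their values were seen. Libraries of a group differed by more than counting noise.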

Additional observations from a re-analysis of the deposited data

Results flagged for a closer look

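The effects of the same treatment differed between experiments for 4 results, tested as differences in the joint fit of 36 libraries. The day 2 inhibitor effect on Cxcl12 was higher by 0.657 (log2) with the empty virus than in the timecourse, where the ligand was lower in both inhibitor libraries than in both controls and with the virus higher in both. The change from uninduced MEFs to day 2 was lower by -2.12 for Cxcl12 and -3.73 for Cxcr4, and higher by 1.3 for Cxcr7, with the empty virus than in the timecourse. Cxcr4 rose from MEFs to day 2 in the timecourse and fell in the lentivirus cells. The macrophage and leukocyte markers summed to 436 to 441 TPM in timecourse MEFs and to 3050 to 3310 TPM in MEFs with the empty virus. TPM is not compared between these experiments, and the part of the markers was not tested. Virus, spiked RNA and read layout go with the experiment and cannot be told apart from it. Groups of 2 libraries allow no search for single outlying libraries.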

How the results depend on the processing

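Of 831 comparisons of an alternative with the main log2 change of the 3 genes, 771 kept its direction and side of the threshold, or moved by less than the spread between replicates. No call of the 3 genes changed with DESeq2 size factors, without the filter on low counts, or with the replicate block. Deviations of libraries with the same replicate number were nearly uncorrelated over all genes (between -0.0936 and 0.109). That cannot exclude a shared embryo or culture. With the replicate block the day 2 change against MEFs was -1.47 for Cxcl12, with 10756 genes called against 10772. The cause of the changes below was not tested. In limma on log2(TPM + 1), Cxcl12 lost its call with -0.0734 for the inhibitor at day 2, -0.11 for early against mid and 0.244 for the inhibitor with the Cdh1 virus. Cxcr4 lost it with 0.241 for early against mid and passed with -0.362 in CDH1+ cells and -0.386 with the Cdh1 virus, where Cxcr7 lost it with 0.252. Untested changes moved there to -0.899, -0.62 and -0.73 for Cxcl12 in the full window against control, early and mid, to 1.29 for day 4 against day 2 controls and to 0.468 for the full window against the inhibitor at day 2 (Cxcr4 0.96). Day 4 controls against MEFs moved from -0.2136 to -0.0417 for Cxcl12, and to 3.05 for Cxcr4 and -1.14 for Cxcr7. In DESeq2 calls ended for Cxcr4 with 0.261 (early against mid) and -0.845 (CDH1-), and for Cxcr7 with 0.228 (CDH1-), 0.251 (CDH1+) and -0.193 (day 2 against MEFs, empty virus). With only the groups compared, they ended for Cxcl12 with 0.245 and Cxcr7 with 0.268 (inhibitor, Cdh1 virus). Leaving out 1 library at a time gave ranges for Cxcl12 of -0.166 to -0.112 (inhibitor at day 2), -0.124 to -0.0958 (early against mid), 1.24 to 1.29 (day 4 against day 2 controls), -0.0243 to 0.0456 (inhibitor effect, CDH1+ minus CDH1-) and 0.214 to 0.279 (inhibitor, Cdh1 virus). For Cxcr4 they were 0.156 to 0.358 (early against mid), -0.97 to -0.73 (inhibitor, CDH1-), -0.173 to 0.246 (CDH1+ against CDH1- under inhibitor) and -1.02 to -0.731 (inhibitor, empty virus). For Cxcr7 they were -0.0583 to 0.103 (full against mid), 0.196 to 0.25 and 0.208 to 0.293 (inhibitor, CDH1- and CDH1+), -0.0246 to 0.0697 (CDH1+ minus CDH1-), -0.275 to -0.0862 (day 2 against MEFs, empty virus), -0.145 to 0.0441 (Cdh1 virus at day 2), -0.00944 to 0.18 and 0.258 to 0.282 (inhibitor, empty and Cdh1 virus). Counts of genes called moved by over 1.5 times in DESeq2 for CDH1+ against CDH1- cells (2243 against 3717, under inhibitor 2154 against 3749), the inhibitor in CDH1- (1403 against 2607) and CDH1+ cells (1460 against 2631), its difference between them (11 against 26) and between the viruses (17 against 0; 5 without the filter). In limma they moved for the early window (495 against 815; 1544 with only its groups), that difference between fractions (8), the Cdh1 virus at day 2 (79 against 135; 208) and the inhibitor with it (249 against 759; 138). Without 1 library they fell as low as 1510 of 2583 (inhibitor at day 2), 1667 of 3075 (early against mid), 380 of 815 (early window), 1674 of 2631 (CDH1+), 87 of 171 and 63 of 135 (Cdh1 virus in MEFs and at day 2), 270 of 1013 (inhibitor, empty virus) and 124 of 759 (Cdh1 virus, up to 1253). Cxcr4 in the sort rests on at most 69 counts a library, which limits its precision.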
